A study of Homo sapiens with 4 samples.

Results

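Solute carrier genes of 14 families that move sugars, amino acids, bicarbonate, chloride, phosphate, sulfate and organic ions across membranes were examined for peaks of H3K4bhb, histone H3 beta-hydroxybutyrylated at lysine 4. Members were all RefSeq GRCh38 genes that code for protein, on any of chromosomes 1 to 22 or on X, whose symbols begin with SLC2A, SLC3A, SLC4A, SLC5A, SLC6A, SLC7A, SLC9A, SLC12A, SLC17A, SLC20A, SLC22A, SLC26A, SLC34A or SLC47A, which gave 138 of 19974 genes. SLC2A4RG, SLC4A1AP and SLC7A6OS matched these letters although their products are not carriers. None of the 3 held a peak.

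The data came from HK-2, an established line of human renal tubular epithelium, grown with fetal bovine serum and exposed to hydrogen peroxide (H2O2), an oxidant, either alone or after pretreatment with BHBNa, the sodium salt of beta-hydroxybutyrate. Both groups thus received H2O2, and cells without it were not analysed here. Doses and times are not given in the sources used here. Each of the 2 treatments had 1 H3K4bhb library and 1 control library and yielded 1 list of peaks, so no difference between treatments has a replicate check and no test was run. Peak lists hold no expression values, so neither the identity of the cells nor the activity of any carrier gene could be checked. The labels imply a comparison of where the mark lies in oxidant-exposed cells with and without the pretreatment. The peaks of cells given H2O2 alone are called the H2O2 list, and those of cells given BHBNa before H2O2 the BHBNa list.

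Beta-hydroxybutyrate is a ketone body that can be attached to histone lysines. Much of the filtered solute is reclaimed in the renal tubule by these carriers. In the proximal tubule, sodium entry drives the uptake of glucose, amino acids and phosphate by apical carriers of the SLC5A, SLC6A and SLC34A families and the export of protons by SLC9A3, and SLC4A4 returns bicarbonate to the blood. SLC22A and SLC47A carriers secrete organic ions and drugs, SLC12A carriers take up salt further along the nephron, and SLC26A carriers exchange chloride, bicarbonate, sulfate and oxalate.

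Some facts of the lists bear on every value below. There were 6251 peaks with H2O2 alone and 11510 after BHBNa, 1.84 times as many, while the lowest background that MACS2 assigned, which follows the number of fragments sequenced, was higher by a factor of 2.68 with H2O2 alone (0.274 against 0.102 fragments). The fewest fragments under a summit were 3 with H2O2 alone and 2 after BHBNa, where 51.9% of peaks had 2. Fragment numbers were recovered from the deposited fold and p. Fold is the authors' ratio of summit to background and is read within a list only, and q is the p corrected for the many positions tested by the peak caller. At the lowest background, 5 fragments gave a q of 0.035 in the H2O2 list, and 3 fragments gave a q of 0.0484 in the BHBNa list.

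Genes were credited with every peak whose summit fell in their annotated span or up to 1 kb beyond it. In the H2O2 list 15 of the 138 carrier genes held a peak, 10.9% (95% Wilson interval 6.7 to 17.2, counting error only), against 8.0% of all protein-coding genes. In the BHBNa list 23 did, 16.7% (11.4 to 23.8), against 15.5% of all genes. Long genes hold more peaks, and the carrier genes were longer than most, with a median of 40.6 kb against 24.2 kb. When each carrier gene was given the share of other genes in its length class (20 classes of equal size) that held a peak, 11.0 and 23.5 carrier genes would have one. As a whole, the carrier genes therefore held peaks about as often as other genes of their length in the BHBNa list, and in 15 against 11.0 in the H2O2 list, a gap that lies within the counting interval. When each gene was instead given the peak density of its chromosome, 15.8 and 26.2 carrier genes would have one, so that the 15 of the H2O2 list lay above one expectation and below the other.

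Counted as peaks, the members held 22 in the H2O2 list (exact Poisson 95% interval 13.8 to 33.3) and 32 in the BHBNa list (21.9 to 45.2) over 8880 kb of gene span and margins. This came to 2.48 and 3.6 peaks per Mb, where all protein-coding genes together had 1.83 and 3.76 and whole chromosomes 2.06 and 3.79. The intervals of the member densities, 1.55 to 3.75 and 2.47 to 5.09, contain both comparison values. Sequence within 1 Mb on each side of the members had 1.29 and 3.33 peaks per Mb, the first of which lies below the counting interval of the members. These flanks were taken gene by gene, so flanks of neighbouring members overlap and can hold other members and their peaks. The 248 other SLC genes, which belong to families outside the 14, held a peak in 18 and 37 cases where genes of like length gave 20.4 and 40.6.

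In both lists the share of members with a peak was highest among the longest. Of the 33 carrier genes up to 20 kb long, 1 held a peak with H2O2 alone and 0 after BHBNa. Of the 47 genes of 20 to 50 kb, 1 and 8 did, of the 37 genes of 50 to 100 kb, 5 and 7, and of the 21 genes over 100 kb, 8 and 8. Other genes over 100 kb held a peak in 33.2% of cases in the H2O2 list and 53.5% in the BHBNa list, and the 21 carrier genes of that length stood at 38.1% in each. Carrier genes of 20 to 50 kb stood at 2.13% and 17.0%, against 3.39% and 10.2% of other genes. Those of 50 to 100 kb stood at 13.5% and 18.9%, against 8.82% and 21.1%.

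**Figure D1:**
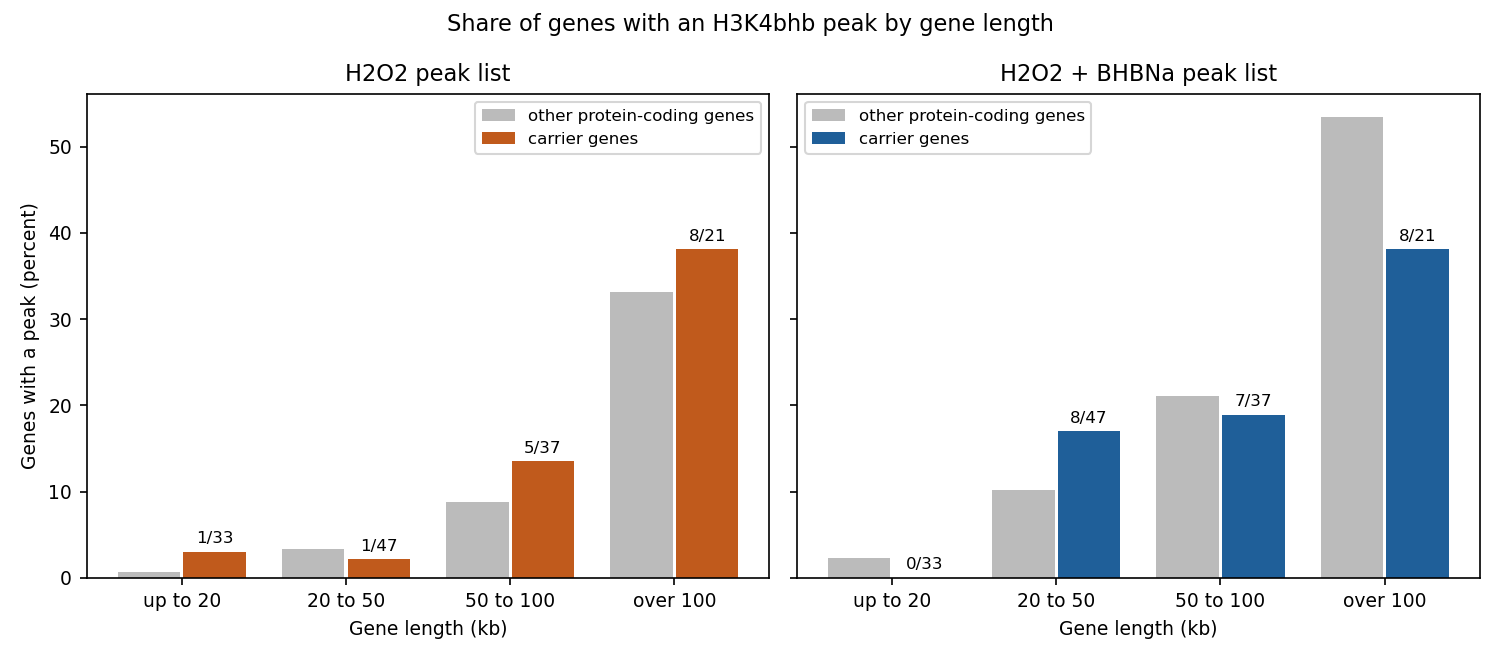
Percent of genes with a peak (y axis) in 4 classes of gene length in kb (x axis) for H2O2 (left) and BHBNa (right). Coloured bars are carrier genes with their counts, and grey bars are all other protein-coding genes. The grey share rises with length in both lists, and 8 of 21 carrier genes over 100 kb held a peak.

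Annotated starts of transcription were on hand for 103 of the 138 members, from RefSeq promoter sequences of GRCh38.p14. No summit of these 103 lay within 1 kb of one. Within 3 kb there was 1 of 19 H2O2 peaks (SLC12A8) and 3 of 29 BHBNa peaks (SLC17A3, SLC12A8 and SLC2A9), and the median distances were 83.2 and 32.9 kb. The median number of CpG dinucleotides in the 250 bases before the first listed start was lower in members with a peak than in members without. It was 3 (12 genes, H2O2 list), 3.5 (20 genes, BHBNa list) and 16 (76 genes with no peak). Over all genes with a promoter sequence the median was 17, and over all such genes with a peak it was 17 with H2O2 alone and 19 after BHBNa. The difference among members was not tested, nor was the part of gene length or family in it.

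Printed here are the 250 bases before the start of transcription for the 2 genes whose starts lay nearest to a peak, the cotransporter family member SLC12A8 (chr3:125211400-125211649, minus strand) and the urate carrier SLC17A3 (chr6:25874244-25874493, minus strand), and for the anion exchanger SLC26A4 (chr7:107660578-107660827, plus strand), whose summits lie 30.2 and 55.2 kb from that start. They read 5′ to 3′ on the strand of the gene, and capitals mark CpG dinucleotides, of which there are 3, 1 and 14.
SLC12A8: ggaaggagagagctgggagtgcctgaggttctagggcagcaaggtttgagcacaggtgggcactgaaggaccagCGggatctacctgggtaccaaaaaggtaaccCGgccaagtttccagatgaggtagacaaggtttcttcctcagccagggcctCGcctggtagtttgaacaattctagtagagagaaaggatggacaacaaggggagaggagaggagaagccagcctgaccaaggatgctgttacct
SLC17A3: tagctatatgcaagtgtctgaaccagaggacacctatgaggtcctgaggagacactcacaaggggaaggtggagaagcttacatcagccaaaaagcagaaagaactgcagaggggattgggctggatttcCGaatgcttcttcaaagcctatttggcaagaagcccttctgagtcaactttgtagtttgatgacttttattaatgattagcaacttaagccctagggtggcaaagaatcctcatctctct
SLC26A4: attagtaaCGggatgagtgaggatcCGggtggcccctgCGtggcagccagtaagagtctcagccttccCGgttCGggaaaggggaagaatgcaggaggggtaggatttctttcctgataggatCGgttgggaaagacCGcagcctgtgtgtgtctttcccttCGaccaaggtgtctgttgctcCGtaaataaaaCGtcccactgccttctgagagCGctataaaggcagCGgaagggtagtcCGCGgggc

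GC content of these stretches was 54%, 44.8% and 56%. The peaks themselves lie outside them, and their own sequence was not used here.

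The families, most of them small, differed in the number of genes with a peak, and whether by more than counting error was not tested. SLC26A, a family of anion exchangers and chloride channels, had peaks in 7 of its 10 genes in the BHBNa list, where genes of like length gave 1.69, and in 1 of 10 in the H2O2 list, where they gave 0.746. The 13 other families together, 128 genes, held peaks in 16 genes of the BHBNa list against 21.8 from genes of like length, and in 14 against 10.2 in the H2O2 list. All members stood at 23 against 23.5 in the BHBNa list, so the lower count of the rest follows from taking SLC26A out. SLC6A, the carriers of amino acids and neurotransmitters, and SLC5A, the sodium-coupled sugar and monocarboxylate carriers, had 0 of 19 and 0 of 12 genes with a peak in the BHBNa list, where genes of like length gave 2.67 and 1.78. In the H2O2 list SLC6A had 1 of 19, against 1.02, and SLC5A had 2 of 12, against 0.705, on the other side of its expectation. SLC26A was singled out among 14 families after its count was seen, and whether the treatments differ at these genes was not tested.

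**Figure D2:**
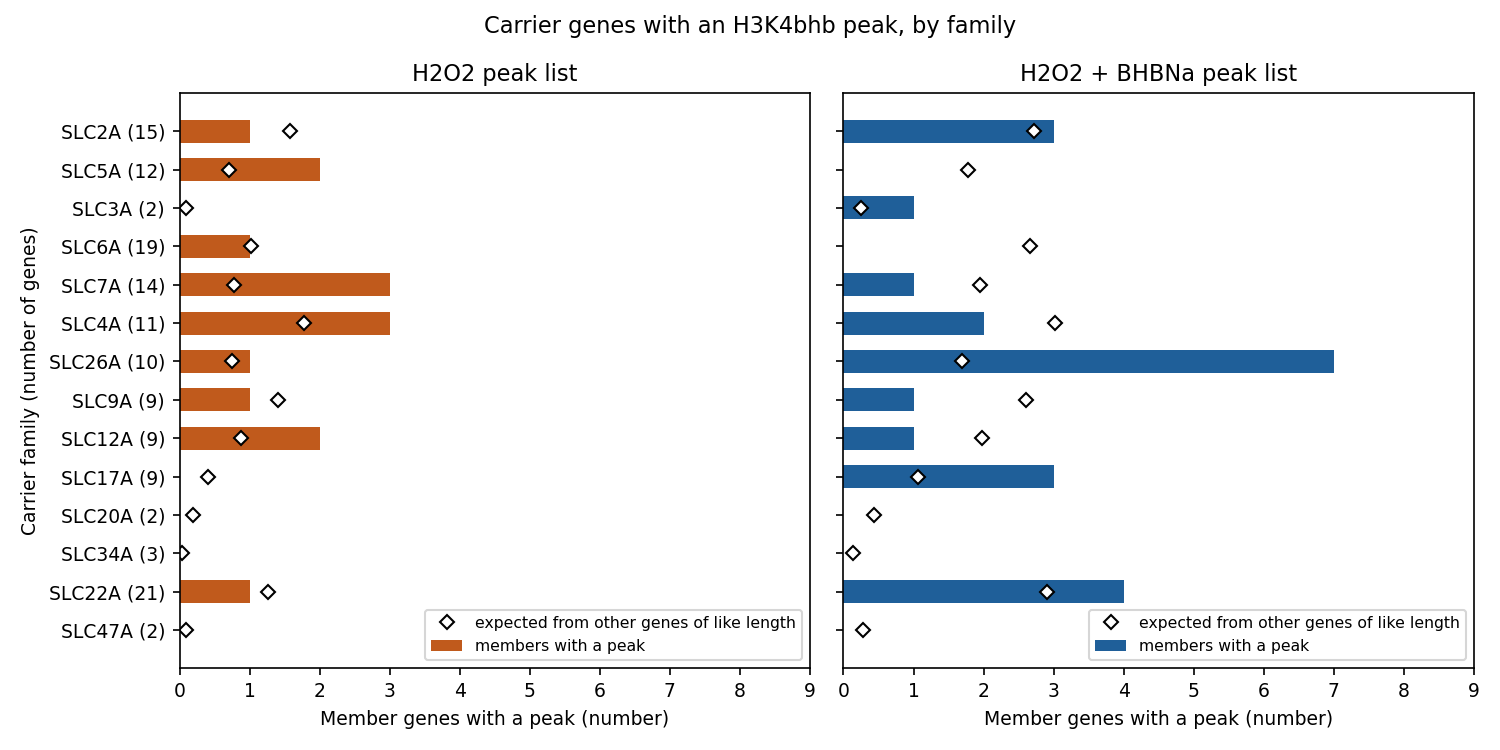
Number of carrier genes with a peak (bars, x axis) in each of the 14 families (y axis, with family size) for H2O2 (left) and BHBNa (right). White diamonds show the number that other genes of like length would give. The SLC26A bar of the BHBNa list reaches 7 of 10 genes against a diamond at 1.69.

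The SLC26A genes with a peak in the BHBNa list were SLC26A2, SLC26A3, SLC26A4, SLC26A5, SLC26A7, SLC26A8 and SLC26A9. SLC26A4 encodes pendrin, the chloride and bicarbonate exchanger of beta-intercalated cells in the collecting duct. It spans 57 kb (chromosome 7, 107660828 to 107717809) and had no peak with H2O2 alone and 2 after BHBNa. The higher, at 107690800 to 107691146 near the middle of the gene, had a fold of 4.35 (4 fragments, q 0.0102), over a background of 0.149. The other, at 107715684 to 107716094, had a fold of 2.55 from 2 fragments. Its neighbour SLC26A3, an intestinal chloride and bicarbonate exchanger, lies less than 50 kb away and also had 2 peaks in the BHBNa list, with folds of 2.69 and 2.65 from 2 fragments each. Runs of neighbouring members no more than 500 kb apart were counted after these values were seen. The 142 kb from SLC26A4 to SLC26A3 held 4 peaks where the average density of that list gives 0.54. The H2O2 list had 1 peak in the same stretch, inside CBLL1, a gene that lies between them, with a fold of 3.74 (4 fragments, q 0.228). Other runs lay on both sides of the average density in the BHBNa list. There was 1 peak against 0.469 from SLC2A14 to SLC2A3, 0 against 2.15 from SLC7A14 to SLC2A2, and 0 against 1.18 from SLC5A1 to SLC5A4.

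SLC26A7, a chloride and bicarbonate exchanger of acid-secreting kidney and stomach cells, had the highest fold of any member in the BHBNa list. Its single peak reached a 4.75-fold summit with 5 fragments (q 0.0075), at 91307872 to 91308271 on chromosome 8, close to the middle of a gene of 189 kb. The background there was 2.58 times the lowest. SLC26A2, a sulfate transporter needed in cartilage, had 1 peak with a fold of 3.61 (chromosome 5, 149984875 to 149985198). SLC26A9, a chloride channel and exchanger of airway and stomach, had 1 with a fold of 3.6 (chromosome 1, 205933315 to 205933652). Both had 3 fragments and a q of 0.0484, the value that list gives to 3 fragments at the lowest background. SLC26A8, a testis anion exchanger, had 1 peak of 2 fragments with a fold of 2.69. The nearest H2O2 summits lay 1390 kb from SLC26A2, 1100 kb from SLC26A9, 72.6 kb from SLC26A8 and 33.7 kb from SLC26A7.

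SLC26A5, which encodes prestin, the motor protein of outer hair cells, was the 1 member of the family with a peak in both lists. The H2O2 peak at 103432124 to 103432533 on chromosome 7 had a fold of 4.71 (5 fragments, q 0.035). The BHBNa peak at 103380786 to 103381086 reached a 3.36-fold summit with 3 fragments (q 0.158). The summits were 51416 bp apart. SLC26A1, SLC26A6 and SLC26A11, which are 14.4, 9.74 and 33.1 kb long, held no peak in either list.

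The 9 SLC26A peaks of the BHBNa list lay over 592 kb, or 15.2 peaks per Mb (6.95 to 28.8), against 3.75 per Mb in the 1 Mb flanks of the same genes. The peaks of SLC26A3 and SLC26A4 also count in these flanks, as each gene lies in the flank of the other. The interval covers counting error only and takes peaks as independent, while 4 of the 9 lie from SLC26A4 to SLC26A3. SLC26A was singled out by its count in the BHBNa list, so neither this density nor the stricter limits below are a separate check. With at least 3 fragments required, 5 of the 10 genes kept a peak in that list, where genes of like length gave 0.847 and 8.46% of all genes did. With a q of at most 0.05, 4 of the 10 did, where genes of like length gave 0.268. Over all members that limit on q left 6 genes in the BHBNa list, against 4.41 from genes of like length and 3.16% of all genes, and 2 genes in the H2O2 list, against 0.953 and 0.766%. The 6 were the 4 SLC26A genes, SLC2A7 and SLC2A9, and 4 of their peaks rested on 3 fragments. The 2 were SLC26A5 and SLC12A8.

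**Figure D3:**
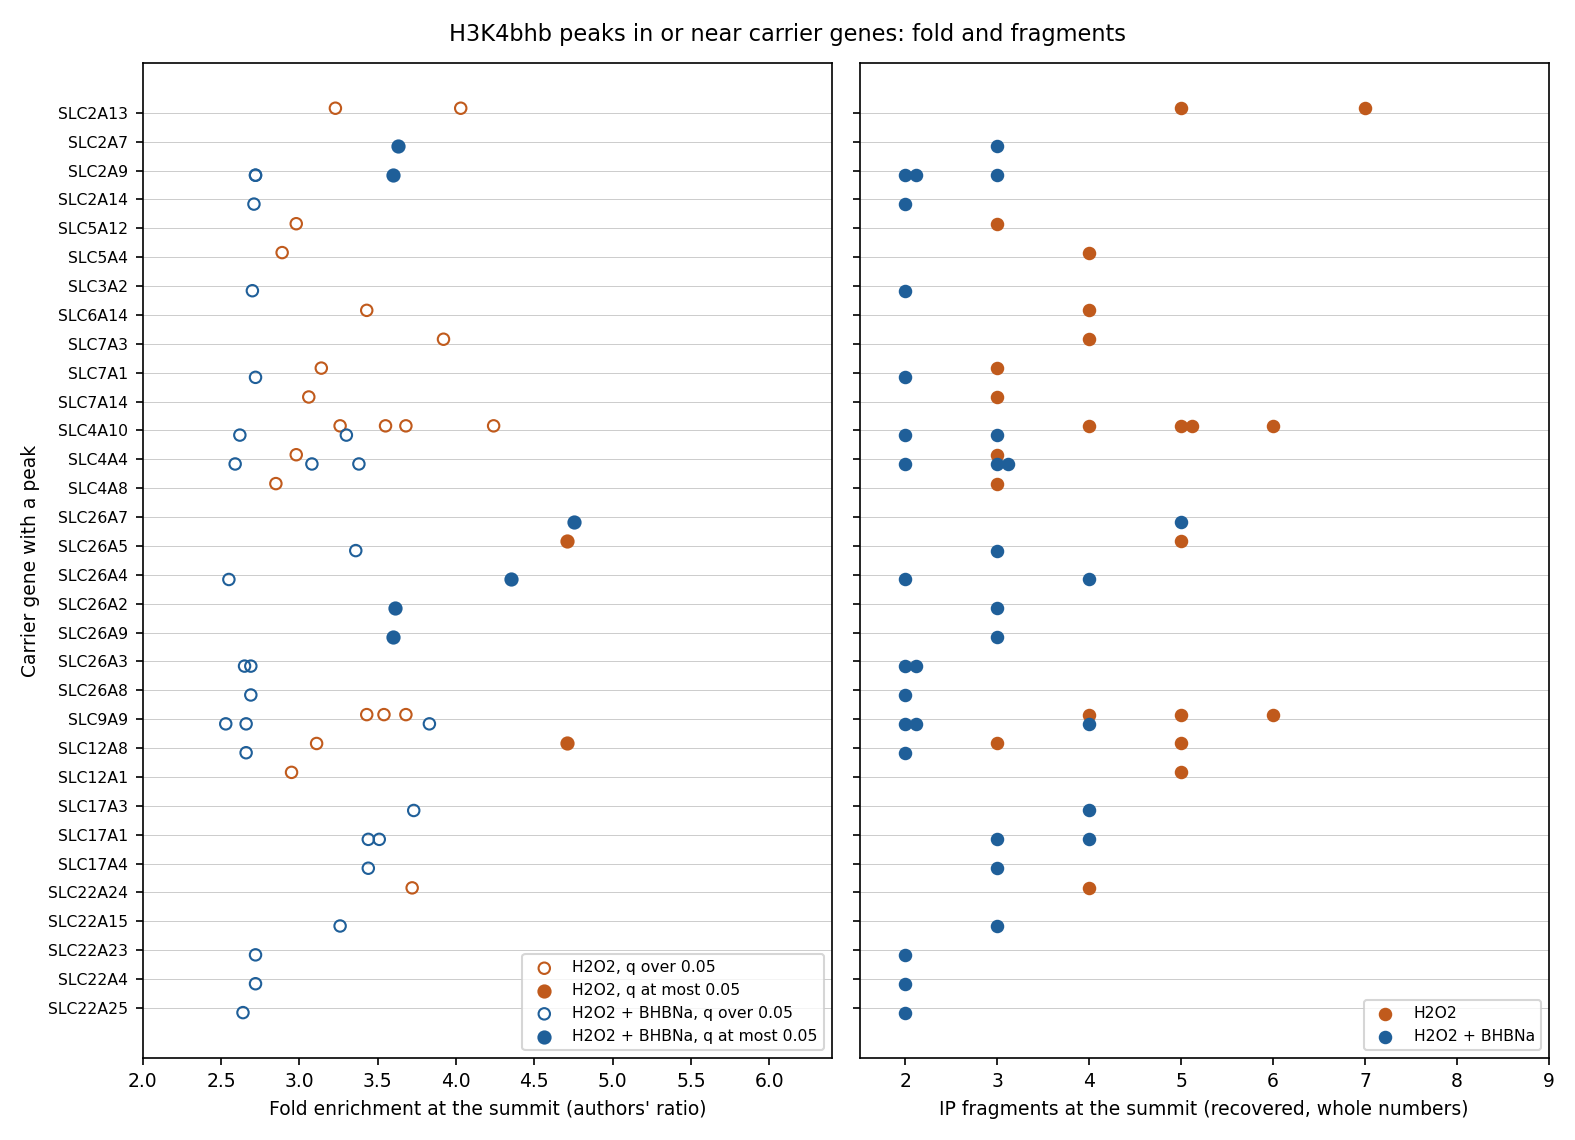
Fold at the summit (left, authors' ratio) and number of fragments recovered at the summit (right) for every peak in or near each carrier gene that held one (y axis, grouped by family). Filled circles on the left mark a q of at most 0.05, equal values on the right are set slightly apart, and folds are read within a list; the 2.72 of SLC2A9 stands for 2 peaks. Filled circles fall on SLC26A7, SLC26A4, SLC26A2, SLC26A9, SLC2A7 and SLC2A9 in the BHBNa list and on SLC26A5 and SLC12A8 in the H2O2 list.

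Among bicarbonate carriers, SLC4A had peaks in 3 of 11 genes with H2O2 alone and 2 of 11 after BHBNa, where genes of like length gave 1.78 and 3.02. SLC4A4, the sodium bicarbonate cotransporter of the basolateral proximal tubule, spans 509 kb (chromosome 4, 71062660 to 71572083). It held 1 peak in the H2O2 list, with a fold of 2.98 from 3 fragments, and 3 in the BHBNa list, with folds of 3.08, 2.59 and 3.38 from 3, 2 and 3 fragments. The average densities give 1.05 and 1.94 peaks for a span of this length. SLC4A10, a sodium bicarbonate carrier known mainly from neurons and choroid plexus, spans 361 kb and had the most peaks of any member in the H2O2 list, 4, with folds of 4.24, 3.68, 3.26 and 3.55. It had 2 in the BHBNa list, with folds of 3.3 and 2.62, and the average densities give 0.747 and 1.38. SLC4A8, a sodium-driven chloride and bicarbonate exchanger, had 1 H2O2 peak with a fold of 2.85.

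Of the sodium and proton exchangers, SLC9A9, which acts in endosomes, was the 1 of 9 genes with a peak in either list. It is the longest member at 583 kb (chromosome 3, 143265222 to 143848468) and held 3 peaks in each list where the average densities give 1.21 and 2.22. Its H2O2 folds were 3.68, 3.54 and 3.43 from 5, 6 and 4 fragments, and its BHBNa folds 2.53, 3.83 and 2.66 from 2, 4 and 2 fragments. The closest summits of the lists were 37753 bp apart. SLC9A3, the apical exchanger of the proximal tubule, spans 54 kb and had none.

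Among the cation and chloride cotransporters, SLC12A8 had the only pair of summits within 1 kb of each other across the lists. The H2O2 peak (chromosome 3, 125208756 to 125209138) had a fold of 4.71 (5 fragments, q 0.035). The BHBNa peak (125209217 to 125209594) reached a 2.66-fold summit with 2 fragments (q 0.326). The summits were 403 bp apart, with 78 bp between the peaks, and lay 2468 and 2065 bp inside the gene from its nearest annotated start. A further H2O2 peak of SLC12A8, of 3 fragments and a fold of 3.11, lay near the other end of the gene. SLC12A1, the salt cotransporter of the thick ascending limb and target of loop diuretics, had 1 H2O2 peak with a fold of 2.95 from 5 fragments, over a background 3.76 times the lowest, and none in the BHBNa list. SLC12A3, the thiazide-sensitive cotransporter, had none.

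Sugar and urate carriers held 1 of 15 SLC2A genes with a peak with H2O2 alone and 3 of 15 after BHBNa, against 1.58 and 2.72 from genes of like length. SLC2A9, the voltage-driven urate carrier of the proximal tubule (chromosome 4, 9771025 to 10040270), had no H2O2 peak and 3 BHBNa peaks with folds of 2.72, 3.6 and 2.72. They rested on 2, 3 and 2 fragments, the middle one with a q of 0.0484, and the average density gives 1.03. SLC2A7, an intestinal hexose carrier, had 1 peak there with a fold of 3.63 (q 0.0484). SLC2A14, a close duplicate of the neighbouring SLC2A3 with which reads may be shared, had 1 peak of 2 fragments. SLC2A13, the proton-coupled inositol carrier, had 2 peaks in the H2O2 list alone, with folds of 3.23 and 4.03 from 5 and 7 fragments over backgrounds 3.14 and 3.59 times the lowest. In SLC5A, SLC5A12, a low-affinity lactate carrier of the proximal tubule, and SLC5A4 had 1 H2O2 peak each with folds of 2.98 and 2.89.

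Amino acid transport genes of SLC3A, SLC6A and SLC7A had a peak in 4 of 35 cases with H2O2 alone and in 2 of 35 after BHBNa. Genes of like length gave 1.89 and 4.88. SLC7A had 3 of 14 genes with a peak with H2O2 alone and 1 after BHBNa (0.782 and 1.95 from genes of like length). SLC7A1, the cationic amino acid carrier that takes up arginine, had 1 peak in each, with folds of 3.14 and 2.72 and summits 11309 bp apart. SLC7A14 had 1 H2O2 peak with a fold of 3.06. SLC6A14, a broad amino acid carrier, had the 1 SLC6A peak, with a fold of 3.43 from 4 fragments in the H2O2 list. SLC3A2, the heavy chain that carries SLC7A light chains to the membrane, had 1 BHBNa peak of 2 fragments and a fold of 2.7.

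SLC17A, which includes urate and phosphate carriers of the proximal tubule, had 0 of 9 genes with a peak with H2O2 alone and 3 of 9 after BHBNa, against 0.4 and 1.06. All 3 lie side by side on chromosome 6, where the 207 kb from SLC17A1 to SLC17A2 held 3 peaks and the average density gives 0.784. SLC17A1 had a peak with a fold of 3.51 from 4 fragments (q 0.21) at 25747927 to 25748182, over a background 4.17 times the lowest. The next, at 25772575 to 25772947 with a fold of 3.44 from 3 fragments, lay where SLC17A1 and SLC17A4 overlap and counts for both genes. SLC17A3 had the last of the 3, with a fold of 3.73 (4 fragments, q 0.117) at 25872312 to 25872596, 1820 bp inside the gene from its annotated start. The background there was 3.34 times the lowest. The phosphate carriers SLC20A and SLC34A, with 2 and 3 genes, had no peak in either list.

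The organic ion carriers of SLC22A had 1 and 4 of 21 genes with a peak, against 1.26 and 2.9 from genes of like length. SLC22A24 had the H2O2 peak, with a fold of 3.72 from 4 fragments. In the BHBNa list SLC22A15 had a peak with a fold of 3.26 from 3 fragments, and SLC22A4, a carrier of ergothioneine, SLC22A23 and SLC22A25 had peaks of 2 fragments each. SLC22A24 and SLC22A25 lie in the chromosome 11 cluster that also holds SLC22A6 and SLC22A8, the organic anion carriers of proximal tubule secretion, and neither of those had a peak. The run of 554 kb that holds this cluster and SLC3A2 had 2 peaks in each list, where the average densities give 1.14 and 2.1. SLC47A, the extruders of organic cations, had 0 of 2 genes with a peak in either list.

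Of 21 carriers chosen for their role in the kidney, 2 held a peak in the H2O2 list (SLC4A4 and SLC12A1) and 4 in the BHBNa list (SLC2A9, SLC4A4, SLC17A1 and SLC26A4). Genes of like length gave 2.02 and 3.81, and the shares, 9.52% and 19.0%, stand beside 8.0% and 15.5% of all genes. The other 16 had none in either list. They were the glucose carriers SLC2A2, SLC5A1 and SLC5A2, the amino acid transport genes SLC3A1, SLC6A19 and SLC7A9, and SLC9A3 and SLC12A3. Also among them were the phosphate carriers SLC20A1, SLC34A1 and SLC34A3, the organic ion carriers SLC22A2, SLC22A6 and SLC22A8, the urate exchanger SLC22A12, and SLC47A1. These 16 genes are short, 6.83 to 69.8 kb, and for all of them together the average densities give 1.08 and 1.98 peaks, so that a count of 0 says little at this depth.

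Both lists had a peak in 6 members, SLC4A4, SLC4A10, SLC7A1, SLC9A9, SLC12A8 and SLC26A5, where 4.35% of all genes did. Genes of like length gave 4.98, and independent lists with the same shares would give 4.33. A peak in the H2O2 list alone was held by 9 members, in the BHBNa list alone by 17, and in neither by 106. For the 248 other SLC genes these counts were 10, 29 and 201. Of all 19974 genes, 1597 held a peak in the H2O2 list, 3087 in the BHBNa list and 868 in both. Overlap by 1 bp or more was rare throughout, at 1.19% of all 6232 H2O2 peaks on the chromosomes used, and 0 of the 22 member peaks had it. Within 10 kb, a second pair of summits joined that of SLC12A8, in SLC4A10, 6294 bp apart. These 2 of 22 peaks (9.09%) stand beside 10.0% of all H2O2 peaks, and the 1 within 1 kb (4.55%) beside 2.04%.

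**Figure D4:**
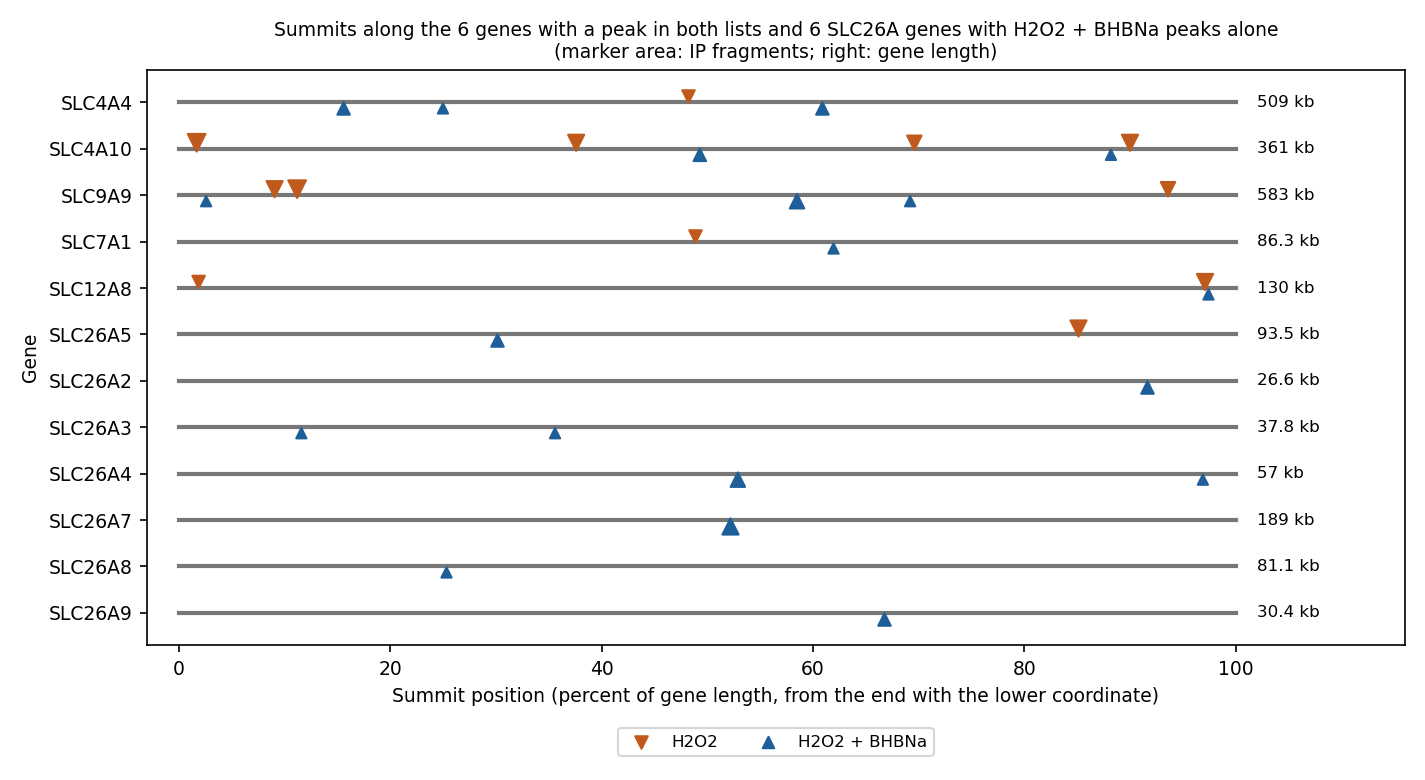
Summits along the 6 carrier genes with a peak in both lists and the 6 SLC26A genes with a peak in the BHBNa list alone (y axis), as percent of gene length from the end with the lower coordinate (x axis). Orange triangles pointing down are H2O2 summits, blue triangles pointing up are BHBNa summits, marker area follows the number of fragments, and gene length in kb stands at the right. In SLC12A8 the marks of both lists nearly coincide, 403 bp apart, and in SLC26A5 they stand 51416 bp apart.

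The rule takes only summits in a gene or up to 1 kb beyond it, and 21 of the 22 H2O2 summits and 32 of the 32 BHBNa summits lay inside a member. Within 1 kb of an annotated end there were 2 H2O2 summits, at SLC5A4, 971 bp inside, and at SLC7A3, a cationic amino acid carrier, 445 bp outside, with a fold of 3.92 from 4 fragments. That is 2 of 138 members, where 0.25% of all genes had such a summit. In the BHBNa list there were 0, where 0.806% of all genes had one. SLC7A3 entered only through the 1 kb margin. No annotated start was on hand for it, so whether that end is its start was not determined. Just beyond it, SLC17A8, a vesicular glutamate carrier, had a summit 1.21 kb away with a fold of 4.27 (q 0.0168) in the BHBNa list, and SLC7A2 had one 1.66 kb away with a fold of 2.72. The nearest H2O2 summits beyond the margin were 4.45 kb from SLC5A7 and 4.46 kb from SLC22A23. The gene table used here gives spans without exons, so whether a summit lies in an exon or an intron was not determined.

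In strength, the members' peaks lay close to the whole lists. The median fold was 3.43 in the H2O2 list and 2.72 in the BHBNa list, against 3.51 and 2.72 over all peaks. Of the 32 BHBNa member peaks, 17 (53.1%) had 2 fragments, against 51.9% of all peaks in that list. Of member peaks, 9.09% and 18.8% had a q no higher than 0.05, against 7.23% and 15.2% of all peaks. The control background at member summits was at most 3.76 and 4.17 times the lowest of the list.

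Partners of these carriers in the kidney were read the same way, as a list of 44 pumps, channels, scaffolds, kinases, receptors and factors. The H2O2 list had a peak in 5 (11.4%) and the BHBNa list in 14 (31.8%), beside 8.0% and 15.5% of all genes. Genes of like length gave 5.54 and 10.1. With at least 3 fragments required, the BHBNa list had a peak in 6 partners against 5.78 from genes of like length. With a q of at most 0.05 it had 3 against 2.18, and the H2O2 list 0 against 0.574. Peaks in both lists were held by 4 of the 44, where non-member genes of like length gave 3.3 and 4.35% of all genes had them. They were CLCN5, an endosomal chloride and proton exchanger, and the potassium channel gene KCNJ16. CUBN and LRP2, the cubilin and megalin receptors of protein uptake, were the others. In the BHBNa list, NEDD4L, a ubiquitin ligase that limits the epithelial sodium channel, had a fold of 6.96 (7 fragments, q 1.14e-06). CUBN reached a fold of 4.38 (q 0.00824), and ABCC4, an exporter of organic anions, 3.61 and 0.0484. In CLCN5 that list held 4 peaks, and the H2O2 list 1. Most of these genes are long: NEDD4L, CUBN, ABCC4, LRP2 and CLCN5 span 357, 306, 282, 235 and 177 kb, and KCNJ16 spans 60.4 kb.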

How the data were processed

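H3K4bhb ChIP-seq peak lists of HK-2 cells were used, 1 for each of 2 treatments. Per the submitters' processing notes, tools included fastp 0.20.1, Bowtie2 2.4.2 and MACS2 2.2.7.1 on GRCh38; settings are not given in the sources used here. Each list was deposited as 2 files, 1 under the IP and 1, with fold and p, under the control library; the peak names of both give IP against input. Both held the same peaks (100% of names and ends equal, starts 1 bp apart). Titles of the controls hold both the word IgG and a library name ending in input, so the kind of control is unclear. Read totals are not given, so depth was read from the peaks.

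The values the authors deposited per peak were a score, a fold enrichment (ratio) and p and q as −log10. In 100% of peaks the deposited score was 10 times that −log10 p, cut to a whole number. Fragments and background at a summit were recovered by taking the fold as (fragments + 1) over (background + 1) and p as the Poisson chance of more fragments (tolerance 0.001 on the −log10 scale, proportionally wider for high values). Summits counted from 1 are the deposited start plus offset.

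Gene spans were those of RefSeq for GRCh38.p14. Genes of like length are non-members in 20 classes of equal size, and their shares with a peak were summed over members. For other SLC genes and transport partners, genes of that list were left out too, except in the expected number of partners with a peak in both lists. Genes named were members with a q of at most 0.05, a summit at a gene end or a peak in both lists, the leading members of each family, and 21 kidney carriers; partners were named with a peak in both lists or a q of at most 0.05. SLC17A8, SLC7A2, SLC5A7, SLC22A23, CBLL1 and remaining members with peaks were named after their values were seen. Members and lists were chosen with earlier results of these data known. Other SLC genes, the 1 Mb flanks, promoter composition, runs of neighbouring members and overlap over all peaks were added after seeing the files. Scripts ran in Python 3.11.15 with pandas 2.3.3, numpy 2.4.6, scipy 1.17.1 and matplotlib 3.10.9. On peaks simulated with the same fold and p formulas they recovered the fragment numbers, and they counted peaks planted in members. The numbers expected from genes of like length were not held to a known answer.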

Additional observations from a re-analysis of the deposited data

How the results depend on the processing

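No paired analysis was possible because there was 1 library per treatment and no numbered replicate, so none could be left out either. Values give H2O2 first and BHBNa second. With only peaks of a q of at most 0.05, members with a peak fell from 15 and 23 to 2 and 6, their peaks from 22 and 32 to 2 and 6, families with such a member from 9 and 9 to 2 and 2, peaks per Mb from 2.48 and 3.6 to 0.225 and 0.676, members with a peak in both lists from 6 to 0, and SLC26A members from 7 to 4 in the BHBNa list. With at least 3 fragments, a limit that removes peaks from the BHBNa list alone, this list had 14 members, 15 peaks and 1.69 peaks per Mb. These smaller counts follow from stricter limits. Without the longest member of each family, the H2O2 list had 9 members and 12 peaks, and 3 members had a peak in both lists. Overlap between lists went from 0 to 1 pair with summits within 1 kb and to 2 within 10 kb. Windows of 0 and 10 kb, any base in place of the summit, and dropping the 3 members that are not carriers (added after seeing the data) kept the counts of members, peaks, families, SLC26A members and members in both lists within 1.5 times. The members expected, 11.0 and 23.5, were 10.9 and 23.7 with 10 length classes, 10.8 and 23.8 with 50, and 15.8 and 26.2 from chromosome density, where 15 H2O2 members lie below the expectation. For SLC26A, 7 BHBNa members stood against 1.65 to 1.87 under these settings, and 1 H2O2 member against 0.735 to 1.16 (added after seeing the data). For families other than SLC26A, 30 of 182 values moved by more than that, all of them counts of 4 or fewer genes in the setting reported.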
